A study of Danio rerio with 20 samples.

Results

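The transcripts described here are 43 of the 57775 that were quantified in whole zebrafish larvae. They were chosen because their level was low in larvae kept with lithium cobalt oxide (LCO) nanosheets at 1 mg/L and less so, or not at all, at 10 mg/L or under the ion treatment. They were selected on deposited TPM, a level corrected for transcript length and scaled to a fixed sum per library. A member had an untreated mean of at least 1 TPM, a value in each of the 5 LCO 1 mg/L libraries below that of every untreated library, and an LCO 1 mg/L mean of at most 0.6 of the untreated mean. Its LCO 10 mg/L and ion means were each at least 0.75 of the untreated mean. The rule allowed up to 300 members, and 43 met it.

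All larvae were wild type by strain and genotype and 10 days post fertilization, and each library came from a pool of 20 larvae. There were 5 pools in each of 4 groups, namely LCO 1 mg/L for 48 hours, LCO 10 mg/L for 48 hours, a treatment labelled only as ion for 48 hours, and untreated larvae, whose labels also give 48 hours. The labels state neither the makeup nor the dose of the ion treatment, nor whether pools shared parents or tanks, so spreads and calls refer to these pools. Whole larvae hold every tissue, and fewer cells of a type cannot be told apart from less RNA per cell.

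LCO is a cathode material of rechargeable batteries, and its nanosheets can shed lithium and cobalt ions in water. An ion treatment in such a study serves to set the effect of dissolved metal beside that of the particles. A gene can give several transcripts that share most of their sequence, and programs that assign short reads to transcripts divide the shared reads by estimate. A lower value of 1 transcript can therefore come with a lower output of its gene or with a shift of reads to a sister transcript. The files give transcript identifiers without gene names, and 0 of the identifiers matched the gene tables at hand, so no gene, role or sequence is given for any member and the results are ordered by condition.

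The libraries held from 24950500 to 63120000 estimated counts. LCO 10 mg/L replicate 2 stood apart in composition. Its 10 most abundant transcripts took 37.5% of all TPM, against 9.83% to 17.9% in the other 19 libraries, and the median of all 28782 transcripts with an untreated mean of at least 1 TPM was 0.52 below untreated there on the log2 scale of TPM. In the other exposed libraries that median lay between -0.11 and 0.16. In a principal component analysis of log2 CPM (counts scaled to a fixed sum per library), 8 libraries had a positive value on the first axis. Their values ran from 30.9 (LCO 10 mg/L replicate 4) to 109 (LCO 1 mg/L replicate 2). Such a split by sign always leaves libraries on both sides and is no test for outliers, so the word outlying below is only a label. These outlying libraries were LCO 1 mg/L replicates 1 and 2, LCO 10 mg/L replicates 2, 3, 4 and 6 and ion replicates 4 and 6. The labels name no batch that would match them. The main results are also given without these libraries below. That leaves 3 libraries at 1 mg/L, 3 under ion and 1 at 10 mg/L. The ratios, gaps between groups and spreads without them were chosen for display after the data had been seen.

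At 1 mg/L the members had a median ratio to untreated of 0.522 in TPM, and the ratios ran from 0.160 to 0.599. In 17 members the ratio was under 0.5. These ratios chose the members, and so did the comparisons with untreated larvae and the gaps between the exposed groups that follow from them. All fits and counts of calls below are therefore descriptions, and no library lay outside the choice to serve as a separate test.

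The member with the lowest ratio was ENSDART00000132961.3, a transcript of 811 bases. It had 0.358, 0.749, 0.261, 0.681 and 0.954 TPM in the 5 LCO 1 mg/L libraries, against 2.77, 4.46, 4.19, 5.11 and 2.19 TPM in the 5 untreated libraries. The mean was 0.60 ± 0.286 TPM at 1 mg/L and 3.74 ± 1.22 TPM in untreated larvae (SD, n = 5 each), a 6.24-fold lower level. At 10 mg/L it had 3.52, 1.89, 2.42, 4.07 and 3.28 TPM, with 4 of those 5 pools within the untreated range and replicate 2 below it. Under ion the pools parted, with 7.81 and 7.93 TPM in replicates 4 and 6 and 3.55, 1.24 and 1.91 TPM in replicates 1, 2 and 3.

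ENSDART00000057948.4 came next, and it shows how uneven a member could be at the higher dose. It had 1.00, 1.80, 1.89, 0.262 and 0.117 TPM at 1 mg/L, against 5.77, 2.24, 5.84, 5.07 and 4.08 TPM in untreated larvae. In the 10 mg/L pools it ran from a value under 0.05 TPM in replicate 6 to 9.87 TPM in replicate 4, with 2.83, 2.34 and 5.44 TPM in replicates 1, 2 and 3. Its mean there was 4.10 ± 3.76 TPM (SD, n = 5), 0.891 of the untreated mean. The estimated level of this transcript was thus under 0.05 TPM in 1 pool at 10 mg/L and higher than in any untreated pool in another. Shared reads are divided by estimate, so the low value does not show that its reads were absent.

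The most abundant member was ENSDART00000022139.9, of 869 bases. It had 172, 147, 230, 262 and 168 TPM at 1 mg/L, against 316, 442, 374, 413 and 417 TPM in untreated larvae. It had 304, 262, 327, 407 and 341 TPM at 10 mg/L and, under ion, 465, 389, 372, 533 and 495 TPM. The LCO 1 mg/L pools lay below all others except that replicate 5 and the lowest 10 mg/L pool met at 262 TPM. This single transcript outweighed the rest together. Summed TPM of all 43 members ran from 276 to 367 in LCO 1 mg/L libraries and from 531 to 685 in untreated libraries, and the other 42 summed to 105 to 134 TPM and 215 to 254 TPM in those groups.

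ENSDART00000165342.2, of 813 bases, was the second most abundant and was even within the low dose. It had 14.2, 15.7, 12.2, 12.0 and 11.2 TPM at 1 mg/L, against 22.6, 34.96, 35.1, 37.5 and 31.1 TPM in untreated larvae. The 10 mg/L pools had 20.6, 20.2, 29.5, 28.4 and 27.4 TPM, all above the LCO 1 mg/L pools, and 2 of the 5 were below the lowest untreated pool. Under ion it had 56.6 and 57.2 TPM in replicates 4 and 6, above every untreated pool, and 26.6, 19.6 and 34.5 TPM in replicates 1, 2 and 3.

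**Figure D1:**
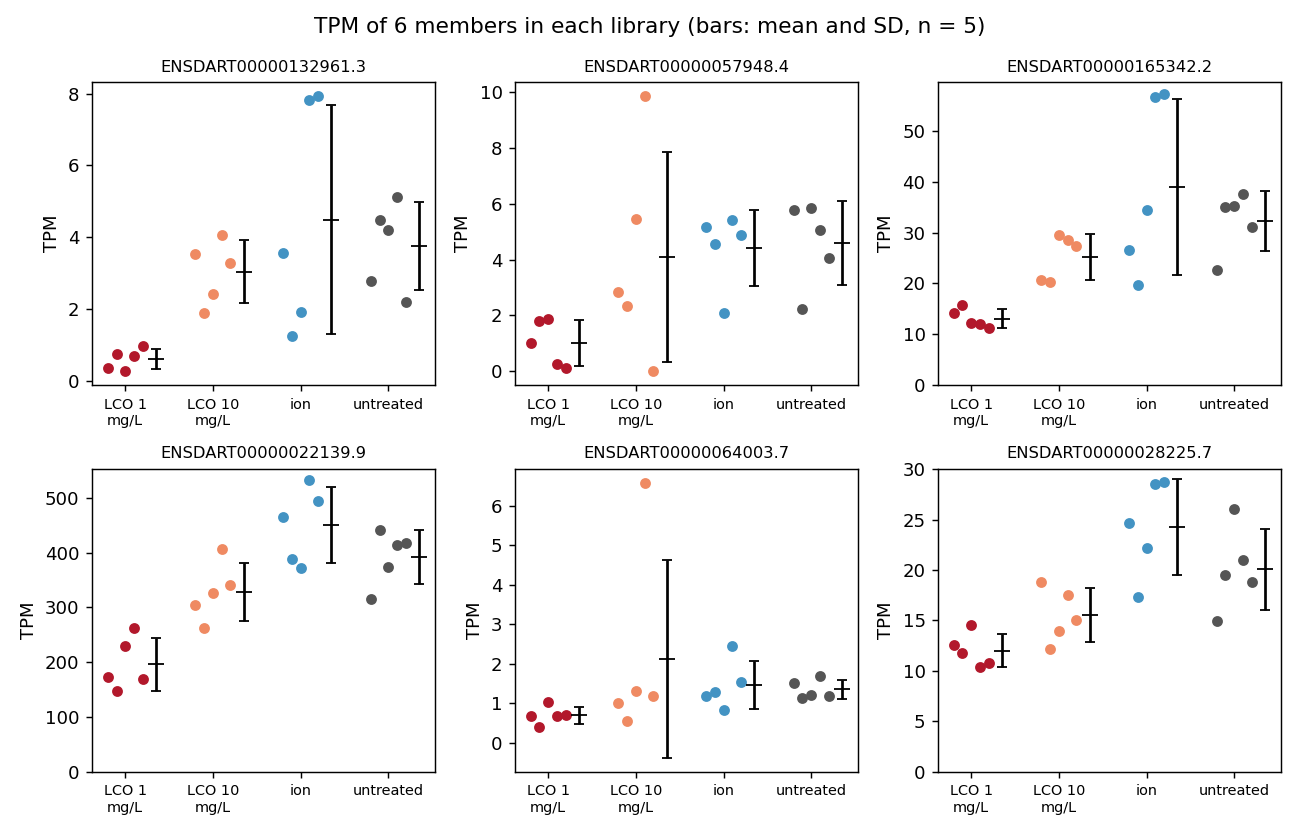
TPM (linear axis from 0 or below) of 6 members in each library, with points for the 5 pools of LCO 1 mg/L, LCO 10 mg/L, ion and untreated in the order of their replicate numbers and a bar for the mean ± SD. The LCO 1 mg/L points lie below all untreated points in each panel, which the choice of members required, while single pools at 10 mg/L reach 9.87 TPM for ENSDART00000057948.4 and 6.58 TPM for ENSDART00000064003.7.

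Counts were fitted across all 39355 transcripts that passed the count filter, with edgeR's quasi-likelihood test, and called means an adjusted p under 0.05 (Benjamini-Hochberg over all of them). All 43 members passed the filter. At 1 mg/L against untreated, 40 of the 43 members were called lower, where 8.41% of all transcripts were called lower. Nothing is read from this share, since the comparison chose the members. The median log2 fold change of the members was -1.003 (range -2.67 to -0.80), and that of all transcripts was 0.004. The 3 members that were not called were ENSDART00000182935.1, ENSDART00000064003.7 and ENSDART00000187185.1, with log2 fold changes of -1.48, -0.99 and -0.83. The last of them lies outside the naming rule and is named after its value was seen. It had 0.360 TPM in LCO 1 mg/L replicate 2 and 2.67, 2.37, 2.35 and 2.21 TPM in replicates 1, 3, 5 and 6. Its untreated pools had 3.35, 4.07, 2.79, 3.02 and 3.71 TPM, so its low mean leaned on 1 pool. The gap between length and effective length, which follows the fragment lengths of a library, was 161 ± 4.39 bases at 1 mg/L and 152 ± 5.98 bases in untreated larvae (SD, n = 5 each). With that gap as a covariate, 26 of the 43 members were called lower, where 4.95% of all transcripts were. With the 8 outlying libraries left out 31 were called lower, where 4.98% of all transcripts were, and the median log2 fold change of the members was -0.954.

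The low values at 1 mg/L rested on few reads for many members. The median estimated count of a member over the 5 LCO 1 mg/L libraries ran from 14 to 4806 between members, with a midpoint of 67.3, and in untreated libraries from 36 to 10380, with a midpoint of 167. By untreated mean, 13 members were under 2 TPM, 22 between 2 and 10 TPM and 8 at 10 TPM or more. A value under 0.05 TPM occurred 4 times, in 3 members. It was found in LCO 1 mg/L replicate 5 for ENSDART00000138598.2 and ENSDART00000182935.1, in LCO 10 mg/L replicate 1 for ENSDART00000182935.1 and in LCO 10 mg/L replicate 6 for ENSDART00000057948.4. ENSDART00000182935.1 had 0.365, 1.11, 1.08 and 1.23 TPM in the other LCO 1 mg/L pools, against 2.85, 1.48, 1.94, 2.25 and 1.41 TPM in untreated larvae, so its highest pool at 1 mg/L came close to its lowest untreated pool, and its fit had the largest standard error of the named members (0.79 on the log2 scale).

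**Figure D2:**
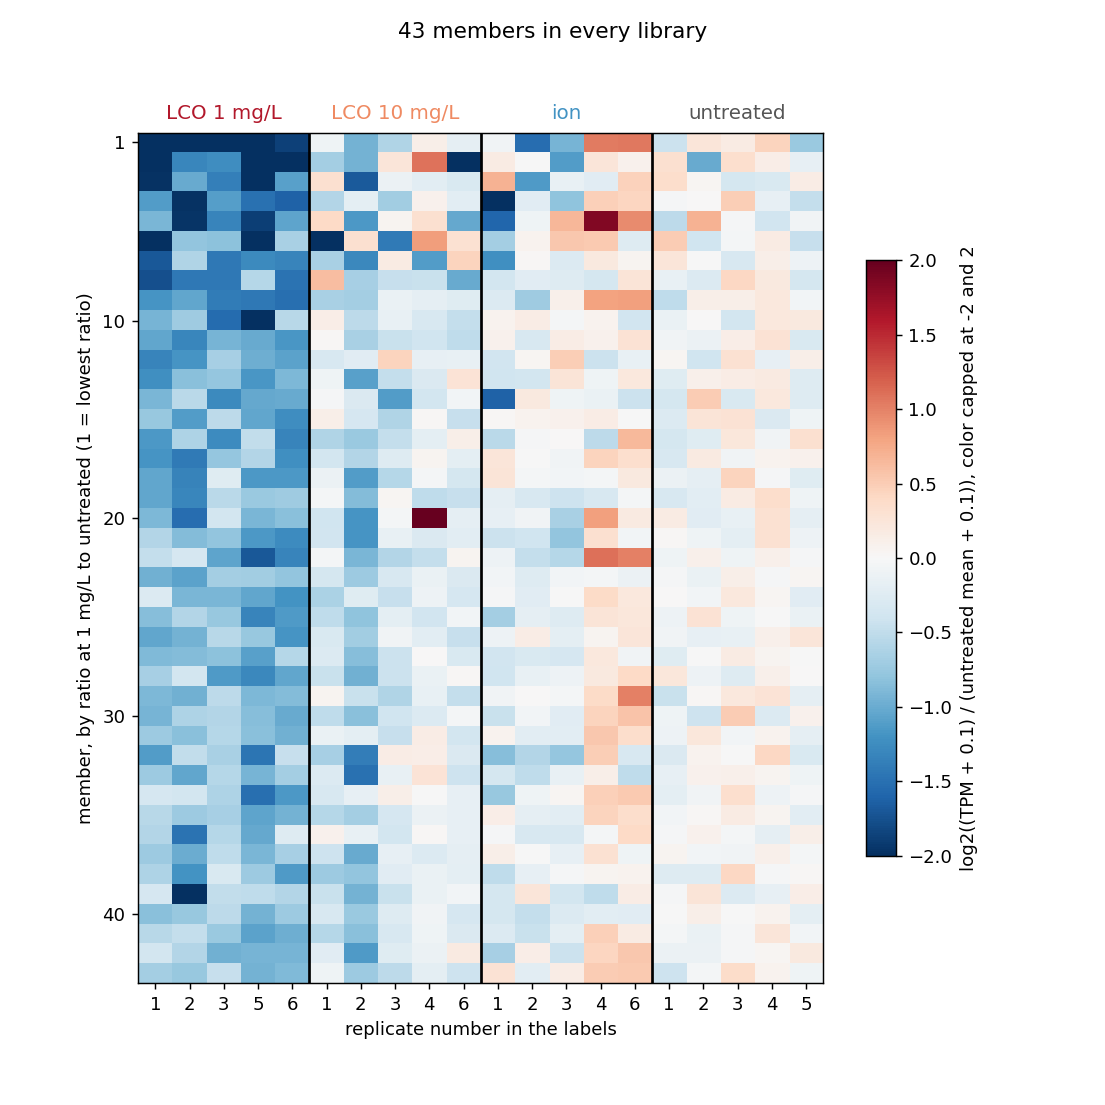
Log2 ratio of TPM to the untreated mean (pseudocount 0.1 TPM, colors capped at -2 and 2) for the 43 members, ordered by their ratio at 1 mg/L, in the 20 libraries under their replicate numbers. The 5 LCO 1 mg/L columns are blue throughout, LCO 10 mg/L replicate 2 is the bluest of its group, and ion replicates 4 and 6 are redder than ion replicates 1, 2 and 3.

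The members at 10 mg/L were mostly between the low dose and the untreated level. The mean at 10 mg/L lay between the LCO 1 mg/L and untreated means in 42 of 43 members, and the median ratio to untreated was 0.791. The rule put all 43 above the low dose, so only the place below the untreated mean was not fixed by it. Of all transcripts of at least 1 TPM untreated, 62.8% had a 10 mg/L mean below the untreated mean, and their median ratio was 0.949. The limit of 0.75 lay just below the median of the members. Of these, 23 had a ratio under 0.8, 14 had one from 0.8 to 0.9, 5 had one from 0.9 to 1, and 1 was above 1. In 25 of 43 members at least 3 of the 5 LCO 10 mg/L libraries were below the lowest untreated library. This held for 25.9% of all transcripts of at least 1 TPM untreated. In 1 of 43 members no LCO 10 mg/L library was below it, against 19.6% of all. Of all these transcripts, 74.8% were below the lowest untreated library in replicate 2, 38.1% in replicate 3, and 17.5% to 22.6% in the other 3 libraries. By edgeR, 0 of the 43 were called at 10 mg/L against untreated, where 3.99% of all transcripts were called lower and 2.28% higher. At an unadjusted p under 0.05, 7 members were lower, where 11.8% of all transcripts were. DESeq2 called 2 lower, where it called 6.24% of all, and limma-voom called 0, where it called 3.77% of all. The rule keeps transcripts with a lower 10 mg/L mean out, so nothing is read from these counts, and a missed threshold does not show that the level equalled that of untreated larvae. The log2 fold changes at 10 mg/L had a median of -0.27, against -0.01 for all transcripts, and 40 of 43 were below 0. In LCO 10 mg/L replicate 1, the only one of its group that is not among the 8, the members' median ratio to untreated was 0.791. There 33 of 43 lay between the untreated mean and that of the remaining LCO 1 mg/L libraries. This held for 19.5% of all transcripts of at least 1 TPM untreated. The value in that replicate 1 was above all 3 remaining LCO 1 mg/L libraries in 38 of 43 members, against 34.8% of all these transcripts. All these libraries took part in the choice of members, so these counts are descriptions too.

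The members lay at the upper edge of a larger set. In all, 1212 transcripts met the conditions at 1 mg/L, and 889 of these kept an ion mean of at least 0.75 of untreated, while 49 kept such a mean at 10 mg/L. The 43 members had a median ratio to untreated of 0.522 at the low dose, 0.791 at the high dose and 1.01 under ion. The 1169 others had 0.444, 0.570 and 0.831 in the same order. The ratios at 10 mg/L ran without a gap across the limit. Just inside it were ratios of 0.7502, 0.753, 0.755 and 0.756, and just outside it 0.749, 0.749, 0.745 and 0.745. At the limit of 0.6 for the low dose, the members just inside had ratios of 0.593, 0.594, 0.597 and 0.599, and the 4 transcripts just outside, ENSDART00000133935.2, ENSDART00000155831.2, ENSDART00000077715.6 and ENSDART00000038524.5, had 0.607, 0.607, 0.607 and 0.610.

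**Figure D3:**
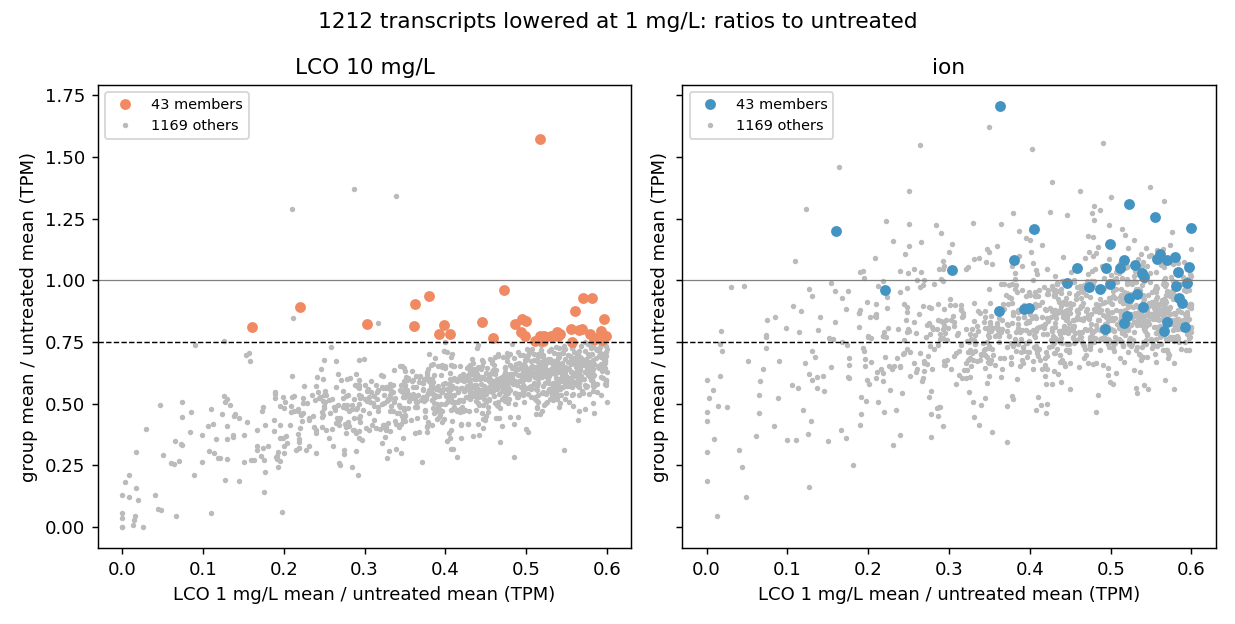
Ratio of the group mean to the untreated mean in TPM at LCO 10 mg/L (left) and under ion (right) against the same ratio at LCO 1 mg/L, for the 43 members (colored) and the 1169 other transcripts lowered at 1 mg/L (grey), with the limit of 0.75 dashed. At 10 mg/L the members lie along the top of 1 continuous cloud. Under ion they overlap the others, with a higher median ratio (1.01 against 0.831).

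The member with the highest ratio to untreated at 10 mg/L was ENSDART00000064003.7, at 1.57, and it rested on 1 pool. It had 6.58 TPM in LCO 10 mg/L replicate 4 and 1.00, 0.543, 1.31 and 1.19 TPM in replicates 1, 2, 3 and 6, against 1.52, 1.14, 1.21, 1.70 and 1.19 TPM in untreated larvae. At 1 mg/L it had 0.674, 0.406, 1.03, 0.672 and 0.710 TPM. In all, 6 members kept a ratio of at least 0.9 both at 10 mg/L and under ion. Of these, ENSDART00000130283.3 was more even among the 10 mg/L pools than ENSDART00000064003.7, though its replicate 3 there stood above the others. It had 0.998, 1.11, 1.64, 1.29 and 1.20 TPM at 1 mg/L and 2.09, 2.23, 3.65, 2.33 and 2.36 TPM at 10 mg/L, against 2.71, 1.98, 3.27, 2.36 and 2.87 TPM in untreated larvae. Its 10 mg/L pools all lay above the lowest untreated pool and above all LCO 1 mg/L pools. ENSDART00000009343.11 averaged 0.647 ± 0.242 TPM at 1 mg/L, 1.05 ± 0.136 TPM at the high dose and 1.14 ± 0.187 TPM in untreated larvae, and ENSDART00000064665.5 averaged 0.997 ± 0.332, 1.59 ± 0.209 and 1.72 ± 0.147 TPM in the same order (SD, n = 5 each).

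Set directly against 10 mg/L, the 1 mg/L level was estimated lower in all 43 members, with a median log2 fold change of -0.74 (range -2.41 to -0.48). By edgeR, 5 of the 43 were called lower at 1 than at 10 mg/L, where 0.211% of all transcripts were. In TPM, all 5 LCO 10 mg/L libraries lay above all 5 LCO 1 mg/L libraries in 8 members, where the same held for 0.32% of transcripts with an untreated mean of at least 1 TPM. The rule sets these groups apart in their means, so both counts are descriptions.

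The 5 called members were ENSDART00000087724.6, ENSDART00000184402.1, ENSDART00000158611.2, ENSDART00000022139.9 and ENSDART00000132961.3. ENSDART00000087724.6 had 2.08, 1.71, 2.25, 2.13 and 1.91 TPM at 1 mg/L and 4.48, 2.77, 3.21, 3.29 and 3.06 TPM at 10 mg/L, with a log2 fold change of -0.88 ± 0.15 (SE) between the doses. Its groups did not overlap, and its untreated pools had 4.20, 4.03, 4.82, 5.37 and 3.55 TPM. ENSDART00000184402.1, a long transcript of 5260 bases, had 0.547, 0.501, 0.687, 0.677 and 0.630 TPM at 1 mg/L and 0.887, 0.664, 0.913, 1.06 and 0.937 TPM at 10 mg/L, where replicate 2 lay among the LCO 1 mg/L pools. ENSDART00000158611.2 had 11.8, 12.6, 14.8, 11.04 and 12.8 TPM at 1 mg/L and 17.0, 12.6, 17.8, 20.2 and 16.9 TPM at 10 mg/L, where again only replicate 2 lay among the LCO 1 mg/L pools. Its untreated pools had 21.2, 23.1, 21.2, 22.5 and 18.5 TPM, and its ion pools 16.6, 15.3, 17.7, 18.4 and 18.3 TPM. All 5 ion pools and 4 of the 5 pools at 10 mg/L were thus below its lowest untreated pool. It was the only member (1 of 43) with all 5 ion pools there. The share over all transcripts is not given here, so nothing is read from that 1 member. The count of 5 depended on single pools. It was 0 without LCO 1 mg/L replicate 1, 2 or 6 and without LCO 10 mg/L replicate 2, 3 or 4, and it was 3 without LCO 1 mg/L replicate 5. It was 14 without LCO 1 mg/L replicate 3, 11 without LCO 10 mg/L replicate 6 and 6 without LCO 10 mg/L replicate 1. Calls over all transcripts moved as well, and they ran from 0.00251% without LCO 1 mg/L replicate 6 to 0.563% without LCO 1 mg/L replicate 3. DESeq2 called 26 members, where it called 1.12% of all transcripts lower, and limma-voom 3, where it called 0.0534%. With only these groups fitted, edgeR called 0 members and 0 transcripts in all, and 40 members were lower at an unadjusted p under 0.05, where 3.99% of all transcripts were. With the 8 outlying libraries left out, 1 library of 10 mg/L remained, so no count of calls is read there. The median log2 fold change of the members between the doses was then -0.651, with 41 of 43 below 0, and that of ENSDART00000132961.3 was -2.39, against -2.41 with all libraries.

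Under ion the members had a median ratio to untreated of 1.01 in TPM (range 0.796 to 1.71), and 22 of 43 had a ratio of at least 1. Of all transcripts of at least 1 TPM untreated, 68.7% had such a ratio, and their median was 1.06. On CPM scaled by TMM, 13 of 43 members had a ratio of at least 1. By edgeR 30 of 43 log2 fold changes were below 0, with a median of -0.09, against -0.004 for all transcripts. The shares of all transcripts were not counted on these scales, so nothing is read from these counts. By edgeR, 0 of the 43 were called under ion against untreated, where 0.028% of all transcripts were called lower and 0.00762% higher. At an unadjusted p under 0.05, 1 member was lower, where 5.47% of all transcripts were. DESeq2 called 1 member lower, where it called 0.892% of all, and limma-voom called 0, where it called 0.0686%. With the 8 outlying libraries left out, edgeR called 0 members, where 0.00464% of all were called lower, and 11 were lower at an unadjusted p under 0.05, where 5.35% of all were. The median log2 fold change of the members was then -0.30. At 1 mg/L against ion, 30 of 43 were called lower by edgeR, where 4.45% of all transcripts were, and all 30 were among the 40 called against untreated. In 25 members all 5 ion libraries lay above all 5 LCO 1 mg/L libraries, which held for 5.89% of transcripts with an untreated mean of at least 1 TPM. With the 8 outlying libraries left out, 6 members were called lower at 1 mg/L than under ion, where 0.735% of all transcripts were, and the median log2 fold change of the members was -0.752, against -0.93 with all libraries. In TPM, 32 of 43 members then had all 3 ion libraries above all 3 LCO 1 mg/L libraries. This held for 19.7% of all transcripts of at least 1 TPM untreated. The rule sets the means of these groups apart, so the counts against ion are descriptions.

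The ion mean was made of unlike pools. In ion replicates 4 and 6 the median log2 ratio of the members to untreated was 0.27 and 0.22, and in replicates 1, 2 and 3 it was -0.27, -0.17 and -0.16. In 24 of 43 members (55.8%) both replicates 4 and 6 were above all of replicates 1, 2 and 3, and in 0 members both were below them. Among all transcripts of at least 1 TPM untreated the shares were 27.2% and 14.6%. Replicates 4 and 6 exceeded the highest untreated library in 20 and 19 of 43 members, against 37.7% and 37.8% of all these transcripts. In replicates 1, 2 and 3 the value was below the lowest untreated library in 22, 16 and 19 of 43 members. The shares of all were 12.6%, 12.1% and 12.9%. Ion means and untreated pools took part in the choice of members, so these counts and shares are descriptions. The mean of replicates 1, 2 and 3 alone was a median 0.857 of untreated and at least 0.75 in 38 members, and that of replicates 4 and 6 was a median 1.14. ENSDART00000132468.3, with the highest ion ratio, had 8.91 and 4.74 TPM in replicates 4 and 6 and 0.732, 2.25 and 3.85 TPM in replicates 1, 2 and 3, against 1.63, 3.94, 2.35, 1.81 and 2.28 TPM in untreated larvae. Ion replicates 4 and 6 are among the 8 outlying libraries, and the part of that separation in these values was not tested.

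**Figure D4:**
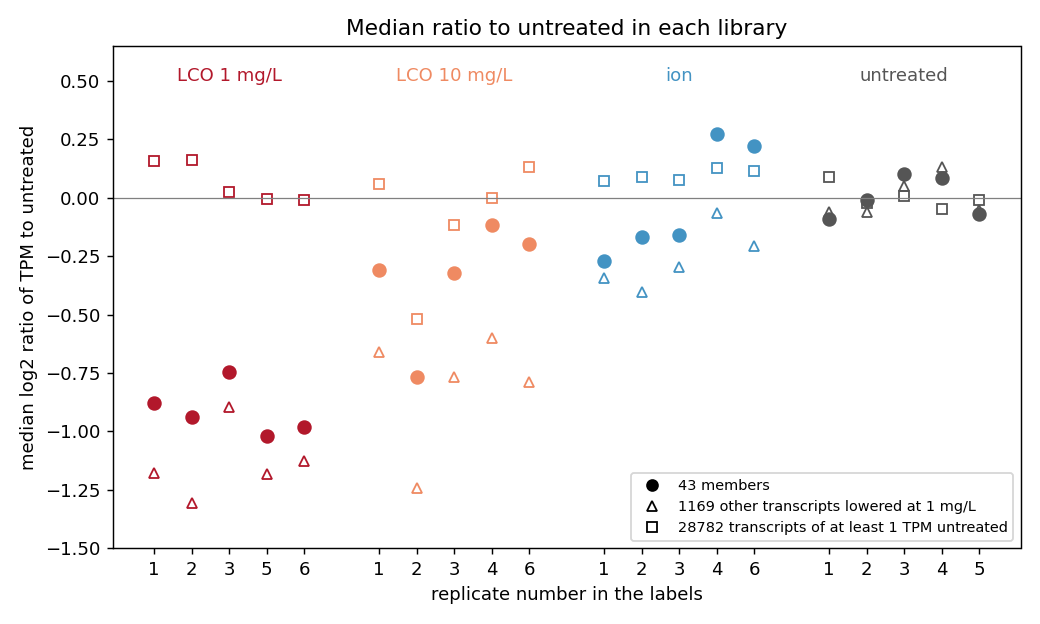
Median difference of log2 TPM from the mean of the untreated log2 values (pseudocount 0.1 TPM) in each of the 20 libraries. Shown are the 43 members (filled circles), the 1169 other transcripts lowered at 1 mg/L (triangles) and all 28782 transcripts of at least 1 TPM untreated (squares). The members' medians lie between -1.02 and -0.74 at 1 mg/L and between -0.77 and -0.12 at 10 mg/L, and in ion replicates 4 and 6 they lie above 0.

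At the low dose the median log2 ratio to untreated was -0.88, -0.94, -0.74, -1.02 and -0.98 in LCO 1 mg/L replicates 1, 2, 3, 5 and 6, and replicates 1 and 2 are among the outlying libraries. Taken relative to the median of all transcripts in the same library, it was -1.04 and -1.10 in replicates 1 and 2, below the -0.77, -1.02 and -0.97 of replicates 3, 5 and 6. Without replicates 1 and 2 the median ratio to untreated was 0.516. Replicate 3 was the highest of its group in 19 of 43 members, against 13.5% of all transcripts of at least 1 TPM untreated. For the high dose it was -0.31, -0.77, -0.32, -0.12 and -0.20 in replicates 1, 2, 3, 4 and 6. Its replicate 2 was the lowest of its group in 31 of 43 members, against 78.7% of all. Its replicate 4 was the highest in 16 of 43, against 16.2% of all. Relative to the median of all transcripts, replicate 2 was no longer the lowest, at -0.25. The 10 mg/L libraries then ran from -0.37 to -0.12, against -1.10 to -0.77 at 1 mg/L and -0.18 to 0.13 in untreated larvae. Values at both doses took part in the choice of members, so these counts are descriptions. Without LCO 10 mg/L replicate 4, only 24 of the 43 members still met the rule.

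The spread between pools was wider under ion and at 10 mg/L than in untreated larvae for most members and for most transcripts alike. At 10 mg/L the share of members was below that of all transcripts. The SD of TPM under ion exceeded that of untreated larvae in 32 of 43 members. It did so in 57.8% of all transcripts of at least 1 TPM untreated. At 10 mg/L it did in 30 of 43 members, against 78.7% of all. At 1 mg/L, where the members' means were lower, it did in 10 of 43, against 65.7% of all. The median coefficient of variation of the members was 23.8% at the low dose, 23.5% at the high dose, 24.9% under ion and 16.5% in untreated larvae, against 16.9%, 21.4%, 13.25% and 12.3% for all transcripts of at least 1 TPM untreated. Without the 8 outlying libraries the SD under ion exceeded that of untreated larvae in 22 of 43 members, against 40.1% of all. That sets SDs of 3 ion pools against SDs of 5 untreated pools, so these shares cannot be set beside those with all libraries. The members' median coefficient of variation was then 18.9% at the low dose and 14.8% under ion, against 10.9% and 9.9% for all. These coefficients also rest on 3 pools per group. The rule required every untreated pool to lie above every low-dose pool, so the spreads of these groups took part in the choice of members. Its effect on the spreads was not tested.

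The members nearest to the median pattern over the 20 libraries, among those not yet named by another part of the naming rule, were ENSDART00000140942.3, ENSDART00000127022.4, ENSDART00000126879.4 and ENSDART00000132130.2. ENSDART00000140942.3 had 6.82, 6.00, 6.32, 4.76 and 5.19 TPM at 1 mg/L and 6.76, 6.24, 7.91, 9.29 and 8.99 TPM at 10 mg/L, against 9.66, 10.2, 11.2, 10.4 and 8.69 TPM in untreated larvae. Replicates 1 and 2 at 10 mg/L thus lay within the range of the low dose, and replicates 4 and 6 reached the untreated range. Under ion it had 13.6 and 12.8 TPM in replicates 4 and 6 and 11.03, 8.90 and 8.65 TPM in replicates 1, 2 and 3. The low dose was thus lowest, the high dose between and the ion pools parted. The median over members has the same order, but this transcript was named for its likeness to that median. The choice of members also fixed the low dose as the lowest mean.

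Transcript length was not itself a condition of the choice, though the TPM used for it is corrected for length. The members had a median length of 1681 bases (quartiles 849 and 2311), against 1582 bases in the 1169 other lowered transcripts and 1810 bases in all transcripts of at least 1 TPM untreated. Of the members, 12 were shorter than 1000 bases and 6 longer than 3000 bases. The untreated mean of the members was a median 3.14 TPM, against 6.01 TPM in the other lowered transcripts and 4.78 TPM in all of at least 1 TPM. No member repeated the rounded counts of another transcript in all libraries (0 of 43).

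Membership depended on the scale and on single pools. On CPM scaled by TMM, which limits the effect of a few very abundant transcripts, the rule chose 126 transcripts, and 38 of the 43 members were among them. The untreated floor of 1 was then in CPM, which is not corrected for length, so floor and scale changed together. On that scale the members' median ratio to untreated was 0.5002 at the low dose, 0.829 at the high dose and 0.942 under ion. Without LCO 10 mg/L replicate 2 the rule on TPM chose 110 transcripts, all 43 members included. It chose 72, 65 and 76 without LCO 1 mg/L replicates 1, 2 and 3, with 42, 38 and 42 members among them, and 31 without LCO 10 mg/L replicate 4, with 24 members among them. With the 8 outlying libraries left out, which leaves 1 library of 10 mg/L, it chose 243, with 22 members among them. Without ion replicates 4 and 6, a setting chosen after their values were seen, it chose 38, all of them members.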

How the data were processed

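Whole-larva RNA of 20 pools (4 groups of 5) was sequenced, and the authors deposited 1 table per library that gives TPM, estimated count and lengths for 57775 transcripts. They used kallisto 0.45.0 after cutadapt 1.18 and FastQC 0.11.5, on build GRCz11, per the submitters' processing notes; the settings are not given in the sources used here. The deposited estimated counts need not be whole and were rounded for tests. The deposited TPM chose the members and gives all levels. Replicates were not pooled, and the lowest chi-square per degree of freedom within the 40 pairs of a group was 11.4, so none was counted as a repeat.

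Counts were fitted in R 4.3.3 with edgeR 4.0.16 (filterByExpr, TMM, group as single factor, all libraries, glmQLFTest, two-sided), adjusted over 39355 transcripts and called under 0.05. Alternatives were DESeq2 1.42.0, limma 3.58.1 (voom), other scaling, filters, covariates and libraries left out. The fit of LCO 1 mg/L against untreated was also run on counts simulated from its own estimated spread. That simulation held no outlying libraries, so nothing about these data is read from it. SE is the size of the log2 fold change over the square root of F. Log2 ratios of TPM use a pseudocount of 0.1, which understates changes of low values. The median log2 ratios per library take the mean of the untreated log2 values as reference, so they can differ from ratios of means.

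Named transcripts were the 8 lowest ratios, the 6 most abundant, the 6 with the highest smaller ratio at 10 mg/L and ion, 4 on each side of 0.6, the 6 with the lowest adjusted p between doses and 4 nearest the median pattern. The members and this rule were chosen with earlier results of these data known. No gene list could be used without gene names.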

Additional observations from a re-analysis of the deposited data

Results flagged for a closer look

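Among 120 sets of 5 pools (29 named transcripts in 4 groups, and the members' median relative to all transcripts), 10 (8.33%) held 1 pool far from the other 4. Chance gives about 1 in 20 only for independent, normally distributed values. The named transcripts were picked from these same values and share libraries, so no excess over chance is read. The largest gap relative to its range was in ENSDART00000064003.7, at 6.58 TPM in LCO 10 mg/L replicate 4 and at most 1.31 TPM in the other 4 pools. ENSDART00000169185.2 had a single high pool in 3 groups, at 2.58 TPM in LCO 1 mg/L replicate 5 (others at most 1.38), 6.01 TPM in LCO 10 mg/L replicate 1 (others at most 2.81) and 4.66 TPM in ion replicate 6 (others at most 3.29). ENSDART00000130283.3 had 3.65 TPM in LCO 10 mg/L replicate 3 (others at most 2.36), and ENSDART00000057948.4 had 2.08 TPM in ion replicate 3 (others at least 4.57). In untreated larvae, ENSDART00000058890.5 had 17.5 TPM in replicate 4 (others at most 14.5) and ENSDART00000009343.11 had 1.46 TPM in replicate 3 (others at most 1.11). Outside the members, ENSDART00000077715.6 had 1.250 TPM in LCO 10 mg/L replicate 2 (others at least 2.38) and ENSDART00000038524.5 had 12.6 TPM in LCO 1 mg/L replicate 1 (others at least 14.1).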

How the results depend on the processing

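The number of members, 43, was 17 with a limit of 0.5 at 1 mg/L, 10 with an untreated mean of at least 5 TPM, 6 with a limit of 0.9 at 10 mg/L and ion, 126 on CPM, 243 without the 8 outlying libraries, and 31 to 110 without each library in turn. Members called lower at 1 mg/L than untreated numbered 26 once the effective length gap was a covariate and 34 to 38 without each library. In the fits without each library, 2487 to 3377 of 39785 to 40025 transcripts were called lower. Against ion, the members called lower numbered 6 without the 8 outlying libraries and 26 to 33 without each library. In the latter fits, 1199 to 1821 of 39799 to 40025 transcripts were called lower. Between the doses, 5 became 3 with no filter, where 45 of 53624 transcripts were called lower. The count became 3 with limma-voom, 26 with DESeq2, 0 with only these groups fitted and 0 to 14 without each library. Without the 8 outlying libraries 1 library of 10 mg/L was left, so no count is read there. At 10 mg/L and under ion against untreated, 0 became 2 and 1 with DESeq2 and stayed 0 without each library. The causes were not tested.

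Little sign was seen that equal replicate numbers pair the pools, though correlations alone cannot exclude a pairing. Of 25 same-numbered pairs, 2 had correlated deviations over 0.1 (range -0.17 to 0.14), and 3 of 20 libraries correlated best with their own number. With the number as a replicate block, 36 members were called lower at 1 mg/L than untreated, 25 lower than under ion and 2 lower than at 10 mg/L. Of all 39355 transcripts, 2766, 1243 and 21 were called lower in the same order. In named transcripts, 1 value turned its direction. ENSDART00000182935.1 had a log2 fold change of 7.04 at 1 against 10 mg/L without the 8 outlying libraries, where the 1 library left at 10 mg/L held 0.0283 TPM. At 1 mg/L against untreated, 456 values of named transcripts kept their side of the threshold, and 63 lost and 3 gained a call. At 1 against 10 mg/L, 440 kept it, and 51 lost and 30 gained a call.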
